A study of Mus musculus with 2 samples.

Results

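Macrophages of small mouse melanomas in which several genes of tissue-resident macrophages were detected are described here, 467 cells of 7418 cells kept and of 11778 barcodes in all. They are called Lyve1 Cd163 macrophages after 2 of the 8 genes that chose them, but the name does not hold cell by cell, since a Lyve1 UMI was present in 60.2% of them in WT and 81.1% in KO and a Cd163 UMI in 35.4% and 36.7%. They were selected on their own measured values, so the genes of the selection are given as a description and support nothing. A cell was kept with 200 to 5000 detected genes and at most 7.5% of its UMIs (unique molecular identifiers, the counted RNA molecules) from mitochondrial genes. The melanoma genes Pmel, Dct, Mlana and Tyrp1 had to hold under 0.5% of its UMIs together, at least 2 of the 5 macrophage genes Csf1r, Adgre1, C1qa, C1qb and C1qc had to have a UMI, and so did at least 3 of the 8 resident genes Cd209f, Lyve1, Fcna, Ccl8, Ednrb, Cd209g, Cd163 and Cbr2. The WT library gave 181 such cells and the KO library 286, and every one of them had a C1q UMI. They were compared with the 1185 other C1q-positive macrophages, 732 in WT and 453 in KO, which passed the same limits with fewer than 3 resident genes.

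B16F10 melanoma cells, a mouse line with its own intact Atf4, were grown under the skin of C57BL/6 hosts of both genotypes. WT hosts were Atf4wt/wt and KO hosts Atf4D/D, in which tamoxifen had activated a CreERT2 driven from Rosa26 to delete Atf4 throughout the body. Per the study's methods the WT hosts carried the same Cre transgene and received tamoxifen too, so both groups share these. Hosts were 11 weeks old, tumours were collected while small, and 2 tumours were pooled into 1 library per genotype, with males and females pooled per the labels. No library has a replicate, so differences stand without a replicate check or a p-value, and intervals are exact 95% intervals that cover counting error only.

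Tissue macrophages that carry LYVE1, a hyaluronan receptor, lie along vessels and nerves in skin, fat and other connective tissue. CD163 is their receptor for haemoglobin bound to haptoglobin, and the CD209 proteins are C-type lectins that bind glycans of microbes and host cells. Such cells take up debris and proteins, and they are commonly set apart from macrophages that arise from blood monocytes, which carry more MHC class II and inflammatory genes. ATF4 is a transcription factor of the integrated stress response that induces amino acid transport and synthesis genes.

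The Lyve1 Cd163 macrophages held 634890 UMIs in WT and 944388 in KO, with medians of 3258 and 3135.5 UMIs per cell. The other macrophages were shallower, at 2135 and 1785 UMIs. Since a gene is detected more often in a deeper cell, the rule reaches deeper cells, and values from cells of like depth are given beside the results they bear on. The libraries shared 10 barcodes, of which 0 were in this class, and a doublet caller marked 5 of the 467 cells. Atf4 stood at 176 CPM in WT (112 UMIs, interval 145 to 212) and at 47.7 CPM in KO (45 UMIs, 34.8 to 63.8), where CPM is the count scaled to a class total of 1000000 UMIs. That is a log2 difference of -1.89 (-2.42 to -1.38), in the direction of the labels, and the other macrophages differed by -1.85. The mice were not alike in sex: a Y-linked UMI was present in 0 of 181 WT cells (up to 2.02%) and in 60 of 286 KO cells (21.0%), against the labels' mixed pool for WT, so that sex, mouse and genotype cannot be fully told apart.

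The resident genes of the rule include 2 neighbours of the Cd209 lectin cluster, Cd209f (ENSMUSG00000051906, chr8:4102787-4105835) and Cd209g (ENSMUSG00000079168, chr8:4134098-4137707), on GRCm38. Their promoters are shown because both genes were detected in the same cells. The 250 bases before each start site, from RefSeq on GRCm38.p6, are chr8:4105765-4106014 on the minus strand and chr8:4134486-4134735 on the plus strand, and capitals mark the 154 bases that are identical between them. The RefSeq start sites lie inside the GENCODE gene spans given above, so the Cd209g stretch falls within its span and the Cd209f stretch partly so.
Cd209f: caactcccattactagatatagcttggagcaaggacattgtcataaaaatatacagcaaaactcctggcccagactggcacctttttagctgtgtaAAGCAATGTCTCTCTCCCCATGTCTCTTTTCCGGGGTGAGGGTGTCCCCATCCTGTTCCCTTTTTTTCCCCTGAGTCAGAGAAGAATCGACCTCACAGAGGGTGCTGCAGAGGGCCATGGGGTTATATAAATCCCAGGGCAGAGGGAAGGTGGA
Cd209g: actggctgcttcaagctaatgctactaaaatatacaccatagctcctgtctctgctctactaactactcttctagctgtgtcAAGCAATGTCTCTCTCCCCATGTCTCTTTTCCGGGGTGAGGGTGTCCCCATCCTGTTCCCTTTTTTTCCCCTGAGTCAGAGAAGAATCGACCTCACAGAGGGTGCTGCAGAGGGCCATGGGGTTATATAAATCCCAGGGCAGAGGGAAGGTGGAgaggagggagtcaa
Counted back from the start site, the identical run lies at -154 to -1 in Cd209f and at -168 to -15 in Cd209g. It holds the AP-1 letters TGACTCA, read on the other strand, and the TATA letters TATAAA. Over both strands, TGACTCA occurred in 4.46% of 32851 promoters of the same length and TATAAA in 12.4%. Of the 7 rule genes found in the RefSeq promoter table, TATAAA was also in that of Ccl8, while TGCTGAC, a core of MAF sites (3.81% of promoters), and AGGAAGT, a PU.1 core (7.69%), were in that of Fcna. The identical run lies before the start sites, and how alike the transcripts are was not examined. Whether the 2 genes lose or exchange reads in counting is thus not known, and the split between Cd209f and Cd209g is uncertain.

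The lectin Cd209f stood at 452 (WT) and 627 CPM (KO), and at 1.12 and 4.16 CPM in the other macrophages. Cd209g stood at 132 and 194 CPM, with 1 and 0 UMIs in the other macrophages. Lyve1 was at 454 (WT) and 1238 CPM (KO), and Cd163 at 209 and 323 CPM. By construction these genes were rare in the other macrophages. Fcna, a ficolin that starts the lectin pathway of complement, was at 236 and 734 CPM. The chemokine Ccl8 was at 5621 and 7513 CPM, and at 745 and 1388 CPM in the other macrophages. Cbr2, a carbonyl reductase, was at 828 and 1186 CPM and also remained at 152 and 175 CPM in the other macrophages, while the endothelin receptor Ednrb was at 644 and 835 CPM. The class was mixed in these genes: Cd209f was present in 34.8% of its WT cells and 31.5% of its KO cells, and Ccl8 in 96.7% and 96.2%. After thinning to 2000 UMIs per cell, Lyve1 was in 46.5% and 74.8% of these cells and in 0.0944% and 0.171% of melanoma cells (at least 1% of UMIs from the 4 melanoma genes and none from the 5 macrophage genes), which should lack it.

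The rule cut through a continuous range. In WT, 411 C1q-positive macrophages had 0 resident genes, 199 had 1, 122 had 2 and 53 had exactly 3, and in KO the counts were 231, 121, 101 and 58. Just inside the limit, with 3 genes, Lyve1 stood at 100.4 (WT) and 375 CPM (KO), and just outside, with 2 genes, at 12.1 and 93.3 CPM. Cd209f stood at 39.0 and 6.15 CPM inside and 4.85 and 11.2 CPM outside. WT cells with 2 or 3 genes mostly carried Ccl8 and Cbr2, which were in 82.8% and 73.8% of the WT cells with 2 genes and in 96.2% and 86.8% of those with 3.

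**Figure D1:**
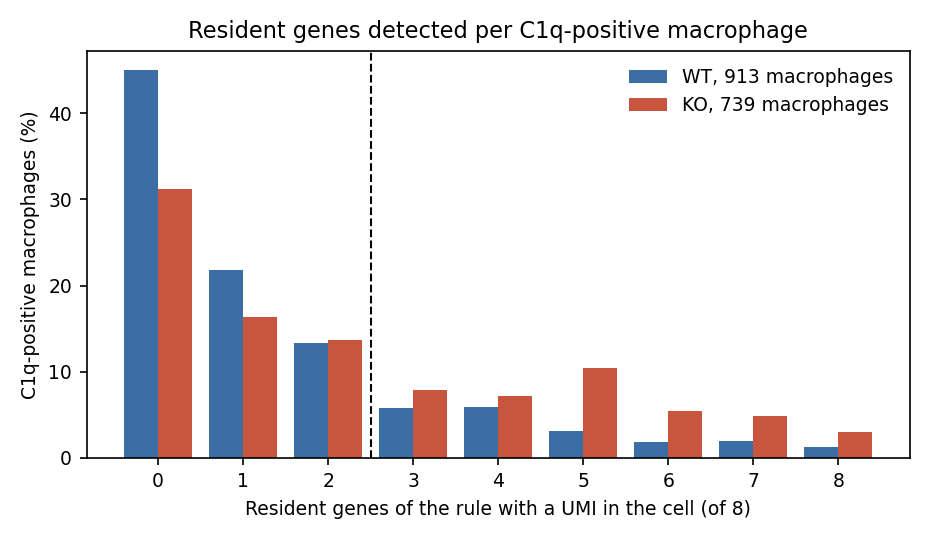
Share of C1q-positive macrophages (vertical axis, percent of the library's 913 WT or 739 KO macrophages) by the number of the 8 resident genes with a UMI in the cell, WT in blue and KO in red. The dashed line is the limit of 3 genes, and there is no gap between the cells on its 2 sides.

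Genes of resident macrophages that the rule did not use were mostly higher in the Lyve1 Cd163 macrophages. Of 28 such genes 27 had at least 50 UMIs, 14 were over 2-fold higher than in the other macrophages of both libraries and 0 were over 2-fold lower, where 1.95% of all 7087 genes compared were over 2-fold higher in both. Their median log2 difference was 1.08 in WT and 1.43 in KO, against 0.04 and -0.04 over all genes. This list, like the others, was chosen with earlier results of these data known, so its values are a description and support nothing. Folr2, a folate receptor of tissue macrophages, stood at 958 (WT) and 1114 CPM (KO), and at 327 and 244 CPM in the other macrophages. Mrc1, the mannose receptor, stood at 1119.9 and 1579.9 CPM against 599 and 623 CPM. F13a1, the coagulation factor subunit made by such cells, was at 1058 and 2340.1 CPM against 417 and 541 CPM, and Selenop, a selenium carrier, at 2158 and 3942 CPM against 871 and 781 CPM. Wfdc17 stood at 5790.0 and 13459.5 CPM against 2077 and 2671 CPM. The platelet factor gene Pf4 hardly differed, at 3133 and 3299 CPM against 2650 and 3185 CPM, and the endocytic adaptor Dab2 differed by 0.80 and 0.97. Timd4, which marks long-lived resident macrophages of the body cavities and other organs, was seen in 4.97% of WT and 3.85% of KO cells. The files hold RNA at 1 time, so whether these cells were resident before the tumour was not measured.

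Markers of most other cell types were low, but the summed dendritic cell and B cell lists were higher than in the other macrophages. Of the lymphatic endothelial genes, which matter since Lyve1 also marks that lineage, Prox1, Mmrn1, Reln and Ccl21a had 0 UMIs in the class in both libraries, and Flt4 had 0 and 3. Pdpn, podoplanin, had 38 UMIs in WT and 128 in KO, in 14.4% and 24.1% of cells (KO over WT 1.18, 0.65 to 1.74). The list summed to 59.9 and 139 CPM, against 74.7 and 79.0 CPM in the other macrophages. T and NK markers summed to 6 and 1 UMIs, mast cell markers to 2 and 2, neutrophil markers to 10 and 35, and blood endothelial markers to 21 and 9. Fibroblast markers summed to 323 UMIs in WT and 183 in KO, with Pdgfrb and Dpt at 0 in WT and KO respectively, and 269 of the 323 lay in 1 WT cell. The median cell had 0 CPM of the fibroblast, endothelial, T cell, neutrophil, mast cell and B cell lists. Dendritic cell markers had a median of 407 CPM per cell in WT and 284 CPM in KO, with Clec9a, Klrd1 and Ccr7 at 0 in both, and of 0 in the other macrophages. They summed to 507 and 349 CPM against 362 and 282 CPM. Of these 10 genes only Bst2, which is also on the interferon-stimulated list, had at least 50 UMIs. Bst2 differed by 0.50 in WT and 0.32 in KO. B cell markers summed to 72.5 and 37.1 CPM against 45.2 and 18.7 CPM, with Ms4a1 at 0 in both. Here 1 of 6 genes had at least 50 UMIs, and it differed by 1.35 and 1.56. The part of such cells or RNA in the results was not tested. The 4 melanoma genes summed to 644 and 543 CPM, below the 876 and 899 CPM of the other macrophages, and 10 further melanoma genes summed to 277 and 224 CPM against 317 and 407 CPM. Red cell genes summed to 1249 CPM in WT and to 0 UMIs in KO.

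Along the number of resident genes, the summed level of the further resident genes went from 8131 CPM in WT cells with 0 genes to 13824 CPM with 2 and 30002 CPM with 6 to 8, and in KO from 8133 to 15584.5 and 40902 CPM. MHC class II genes went the other way, from 8259 to 1103 and 661 CPM in WT and from 8605 to 985 and 516 CPM in KO. The tumour macrophage genes were highest in between, at 26813 CPM with 2 resident genes in WT and 27983 CPM with 1 in KO, and stood at 12175 and 12838 CPM with 6 to 8. Most of the fall in MHC class II genes thus lay outside the limit of the rule, while the tumour macrophage genes still stood at 22770 and 22723 CPM in the cells with 3 resident genes. Median depth in WT went from 1762 UMIs with 0 genes to 3725 with 4 and 2796 with 6 to 8, and in KO from 1473 to 3528.5 UMIs, and its part in these levels was not tested.

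**Figure D2:**
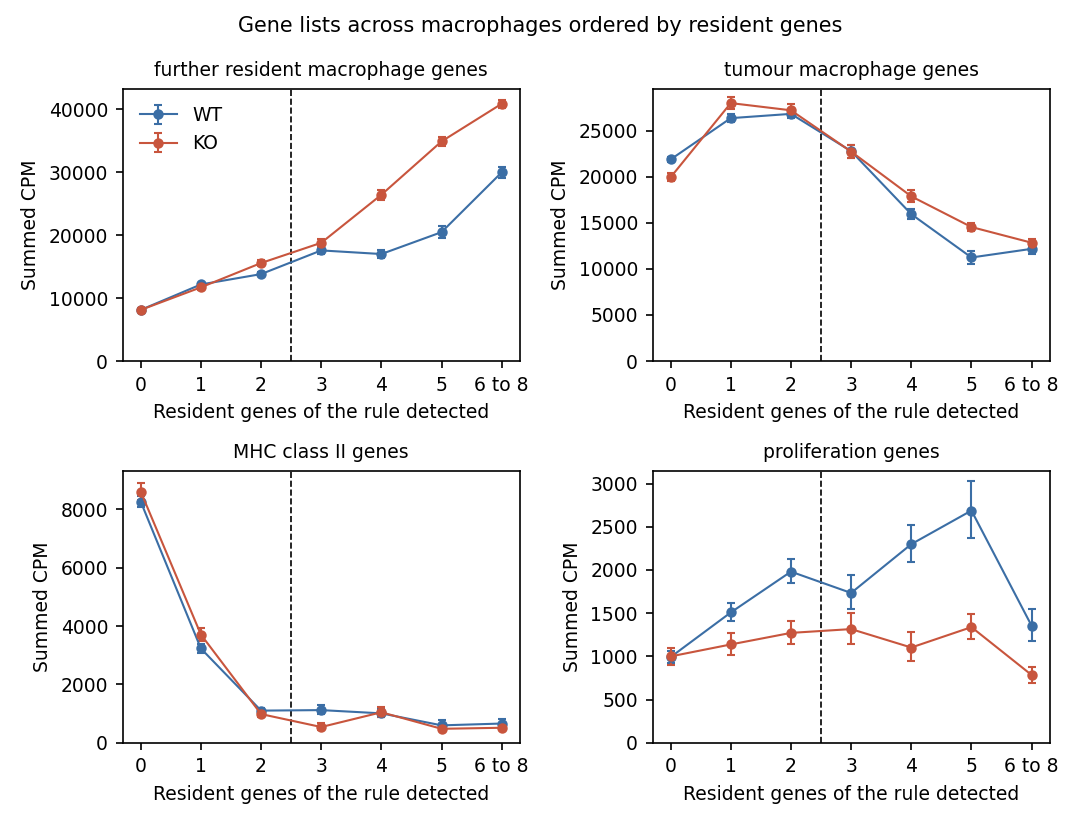
Summed level of 4 gene lists (vertical axes, CPM) in C1q-positive macrophages grouped by the number of resident genes detected (horizontal axes), WT in blue and KO in red, with 95% counting intervals and the limit of the rule as a dashed line. MHC class II genes fell most between 0 and 2 resident genes, to 1103 and 985 CPM, whereas further resident genes were highest in the group with 6 to 8, and proliferation genes were higher in WT than in KO from 1 resident gene on.

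Over all genes outside the rule, 138 of 7087 (1.95%) were over 2-fold higher and 153 (2.16%) over 2-fold lower in the Lyve1 Cd163 macrophages of both libraries. Of the 12 genes that led the higher group, Cd209d (chr8:3871824-3878555) stood at 50.4 (WT) and 121 CPM (KO), with 1 UMI in the other macrophages of each library, log2 differences of 6.50 (3.92 to 11.85) and 6.86 (4.35 to 12.18). Cd209b (chr8:3917655-3926844) stood at 39.4 and 52.9 CPM, with 0 and 1 UMIs in the others, where the WT difference was at least 4.56 if 0 is set to 3 UMIs over the class. Both were in few cells, 9.94% and 12.9% for Cd209d and 7.18% and 7.34% for Cd209b. Marco, a scavenger receptor for particles and bacteria, differed by 3.24 (2.74 to 3.77) in WT and 4.72 (3.81 to 5.79) in KO and was in 15.5% and 21.7% of the cells.

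Complement genes outside C1q held 3 of 9 measured members among the higher genes. C4b, the fourth component, stood at 238 (WT) and 349 CPM (KO) against 31.8 and 47.8 CPM. Vsig4, a receptor for C3b that marks resident macrophages, was at 41.0 and 143 CPM against 6.69 and 2.08 CPM, in 4.97% and 12.6% of cells. Cd55, which is not on that list and speeds the decay of complement convertases, was at 29.9 and 81.5 CPM against 2.23 and 5.19 CPM. Itgax, the fourth complement receptor's alpha chain and a dendritic cell marker, was the lower member, by -2.78 and -2.39. Alox5 and Ltc4s, enzymes of leukotriene synthesis, differed by 2.82 and 2.74 and by 3.15 and 3.78. Saa3, an acute phase apolipoprotein, differed by 3.73 (2.96 to 4.58) in WT and 4.33 (4.04 to 4.64) in KO. The other leading genes were Gprc5b, an orphan receptor (2.61 and 2.89), Fxyd2, a regulator of the sodium pump (2.54 and 3.84), and Kank2 (2.67 and 2.51), each seen in under 35% of the cells.

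**Figure D3:**
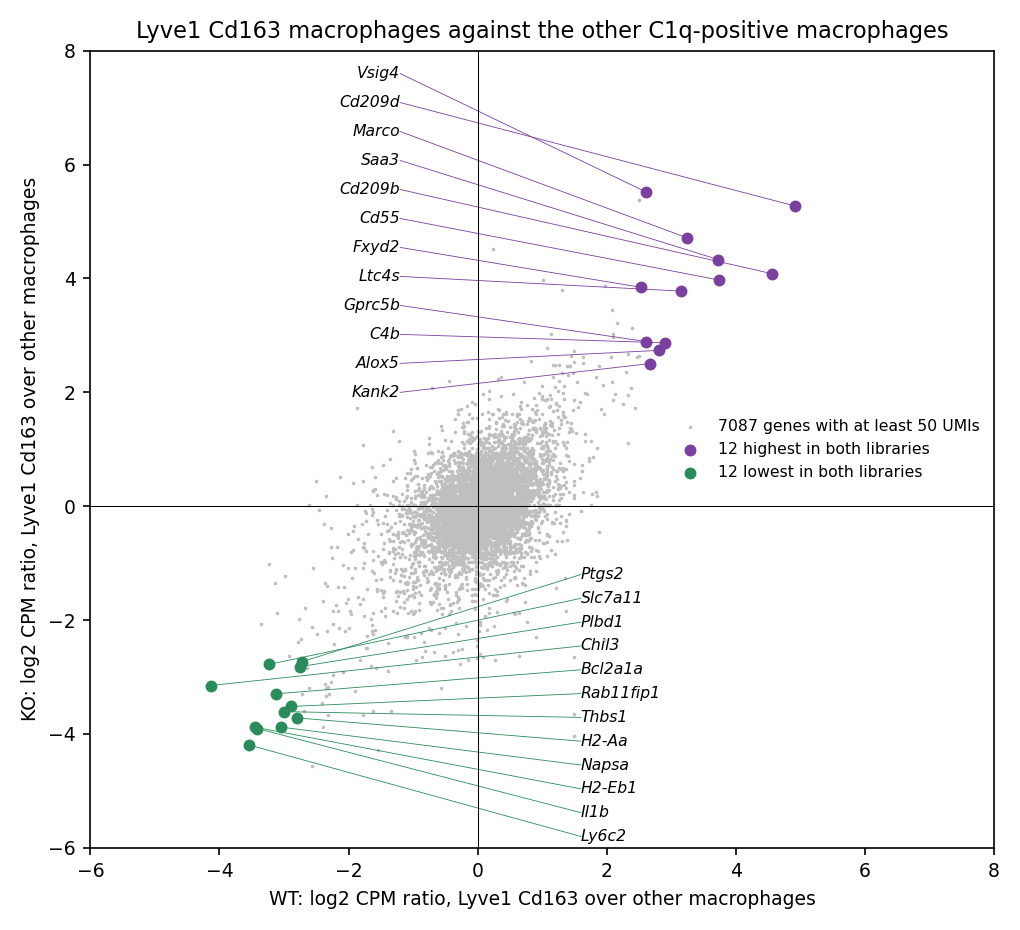
Log2 CPM ratio of Lyve1 Cd163 macrophages over the other C1q-positive macrophages in WT (horizontal axis) and KO (vertical axis) for the 7087 genes compared, with counts under 3 set to 3 and the genes of the rule left out. The 12 genes highest and the 12 lowest in both libraries are named, and each of them differed by over 2-fold in both.

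Scavenger and apoptotic cell receptors were higher as a list, with medians of 0.70 and 0.81 and 5 of 14 members over 2-fold higher. Gas6, the ligand that bridges dying cells to TAM receptors, stood at 660.0 (WT) and 557 CPM (KO) against 131 and 143 CPM. Stab1 differed by 1.08 and 0.67, Cd36 by -0.10 and 0.11 and Msr1 by -0.05 and -0.05. Axl, a TAM receptor, was the member over 2-fold lower, by -2.07 and -1.41. Fcgrt, which recycles IgG, stood at 502 and 680 CPM against 99.3 and 106 CPM. Haem and iron genes had medians of 0.73 and 0.46, and Hmox1, the enzyme that degrades haem, differed by 1.10 and 1.28, while the ferritin chains Ftl1 (-0.21 and -0.20) and Fth1 (0.15 and -0.11) hardly differed. Blvrb (0.73 and 0.46) and Slc48a1 (0.54 and 0.31), of haem breakdown and transport, lay between.

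The lower genes were led by monocyte, MHC class II and inflammatory genes. H2-Aa stood at 119.7 (WT) and 62.5 CPM (KO) against 836 and 822 CPM, differences of -2.80 (-3.16 to -2.47) and -3.72 (-4.12 to -3.33). H2-Eb1 differed by -3.46 and -3.88, H2-Ab1 by -2.70 and -3.60, and Cd74, the invariant chain, by -2.72 and -3.30. Of 9 measured class II and costimulatory genes 6 were over 2-fold lower and 0 over 2-fold higher, with medians of -2.04 and -2.48, while Cd40 was higher, by 1.34 and 0.51, and Cd86 differed by 0.15 and -0.52. Il1b stood at 56.7 and 60.4 CPM against 604 and 905 CPM (-3.41 and -3.91), and Ptgs2, the inducible prostaglandin synthase, differed by -2.72 and -2.73. Among inflammatory cytokine genes 4 of 13 were over 2-fold lower and 0 higher, and Nfkbia (-0.34 and -0.64), Il1rn (-0.64 and -0.72) and Tnf (-0.01 and -1.29) differed less.

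Of 14 monocyte genes 8 were over 2-fold lower and 0 over 2-fold higher, with medians of -1.66 in WT and -1.93 in KO. Ly6c2, a surface marker of classical monocytes, had 4 and 3 UMIs in the class (-3.54 and -4.19), Chil3 differed by -4.14 and -3.15, Thbs1 by -3.00 and -3.61 and Ccr2, the receptor that draws monocytes from blood, by -3.10 and -1.88. Fn1 differed by -2.77 and -1.98, S100a6 by -0.73 and -0.53, S100a4 by -0.80 and -0.70, Plac8 by -0.71 and -0.54, and Lyz2, which most macrophages carry, by -0.08 and 0.41. Tumour macrophage genes had medians of -0.90 and -0.87, with 6 of 19 over 2-fold lower and 0 higher. Spp1 stood at 1292 and 721 CPM against 2973 and 2042 CPM, Gpnmb at 195 and 202 CPM against 537 and 580 CPM and Mmp12 at 20.5 and 63.5 CPM against 209.7 and 267 CPM, whereas Apoe (-0.17 and -0.35), Trem2 (-0.0025 and 0.31), Cd63 (0.13 and -0.02) and Ms4a7 (0.11 and 0.03) were alike in both classes. Over the mean of both libraries the median of this list was -0.68, and -0.12 against only those other macrophages with 0 resident genes. The cells with 1 or 2 resident genes held its highest level. Other leading lower genes were the aspartic protease Napsa, the phospholipase-like Plbd1, Rab11fip1, the survival gene Bcl2a1a and the cystine transporter Slc7a11, with at most 11 UMIs each in the class per library.

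The classes were also held to cells of 2000 to 6000 UMIs, a comparison added after the values had been seen. The median of monocyte genes over the mean of both libraries was then -1.15 rather than -2.43, and 92 genes were over 2-fold lower in both libraries rather than 153. The values that follow are again over cells of all depths. The medians of the remaining lists lay nearer to 0. In lysosomal genes the median was -0.01 in WT and 0.26 in KO, with Acp5 alone of 18 over 2-fold lower and 0 over 2-fold higher. Over the mean of both libraries it was 0.20, and -0.026 with depth standardised. Chemokines had medians of -0.11 and -0.63, with 5 of 17 over 2-fold lower and Cxcl13 over 2-fold higher, in WT on 6 UMIs in 1 cell. Ccl6 (0.57 and 1.44) and Ccl12 (0.90 and 0.71) were higher and Cxcl2 (-0.42 and -1.17) lower. Growth factor and matrix genes had medians of -0.18 and -0.56, with the protease inhibitor Timp2 at 1512 and 2547 CPM against 655 and 593 CPM and the phospholipid carrier Pltp at 646 and 752 CPM against 342 and 232 CPM. Transcription factors had medians of -0.23 and 0.07, with Maf (0.82 and 1.19) and Klf4 (0.45 and 0.68) higher, Spi1 (-0.17 and 0.35) mixed, and Cebpb (-0.69 and -0.58) lower. Hypoxia and glycolysis genes had medians of -0.52 and -0.34, immediate early genes of -0.11 and -0.26 with Egr1 higher (1.24 and 1.10), interferon-stimulated genes of 0.15 and -0.33, ATF4 targets of -0.12 and -0.38, proliferation genes of 0.51 and 0.04, and ribosomal protein genes of -0.16 and -0.29.

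Resident genes were unevenly spread within the class. Cells with a Cd209f UMI, 63 of 181 in WT and 90 of 286 in KO, held most of the detections of the other Cd209 genes and of Timd4. Cd209g was in 41.3% of them in WT and 54.4% in KO, and in 1.69% and 4.59% of the Lyve1 Cd163 macrophages without a Cd209f UMI. Both genes helped to choose the cells and the split of reads between them is uncertain, so this pair is a description and supports nothing. Cd209d was in 25.4% and 33.3% against 1.69% and 3.57%, and Timd4 in 14.3% and 11.1% against 0 of 118 cells (up to 3.08%) and 0.510%. Marco was in 22.2% and 41.1% of cells with Cd209f and in 11.9% and 12.8% of those without. Vsig4, in 6 of the 63 WT and 16 of the 90 KO cells with Cd209f, was in 3 of 118 and 20 of 196 without. Folr2 was in 92.1% and 95.6% against 92.4% and 87.2%, and Mrc1 in 93.7% and 95.6% against 91.5% and 95.9%, shares too near to all cells to show a difference. By level, Folr2 was higher with Cd209f, by 0.61 (0.37 to 0.85) in WT and 0.46 (0.28 to 0.64) in KO, while Mrc1 differed by 0.12 (-0.11 to 0.35) and 0.06 (-0.09 to 0.22). The WT cells with Cd209f were the shallower, at a median of 2679 against 3606.5 UMIs, and the KO cells the deeper, at 3426 against 3024.5. The part of depth in these shares and levels was not tested.

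The share of Lyve1 Cd163 macrophages was higher in KO. They made up 4.69% of kept cells in WT (4.04 to 5.40) and 8.04% in KO (7.17 to 8.98), and 19.8% (17.3 to 22.6) and 38.7% (35.2 to 42.3) of C1q-positive macrophages. The log2 difference of the latter share was 0.97 (0.69 to 1.24), while C1q-positive macrophages as a whole were 23.6% and 20.8% of kept cells. Among macrophages of 2000 to 3000 UMIs the shares were 22.4% and 43.4%, at 3000 to 4000 UMIs 23.6% and 71.3%, and at 4000 to 6000 UMIs 46.8% and 84.7%. Under 2000 UMIs few cells met the rule, 22 in WT and 28 in KO, and the intervals of both libraries overlapped. When every cell was thinned to 2000 UMIs before the rule was applied, leaving 551 WT and 427 KO macrophages, the shares were 20.9% and 54.1%. A change in the number of these cells and a change in how many macrophages pass on their RNA level cannot be told apart, since several genes of the rule were themselves higher in KO.

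**Figure D4:**
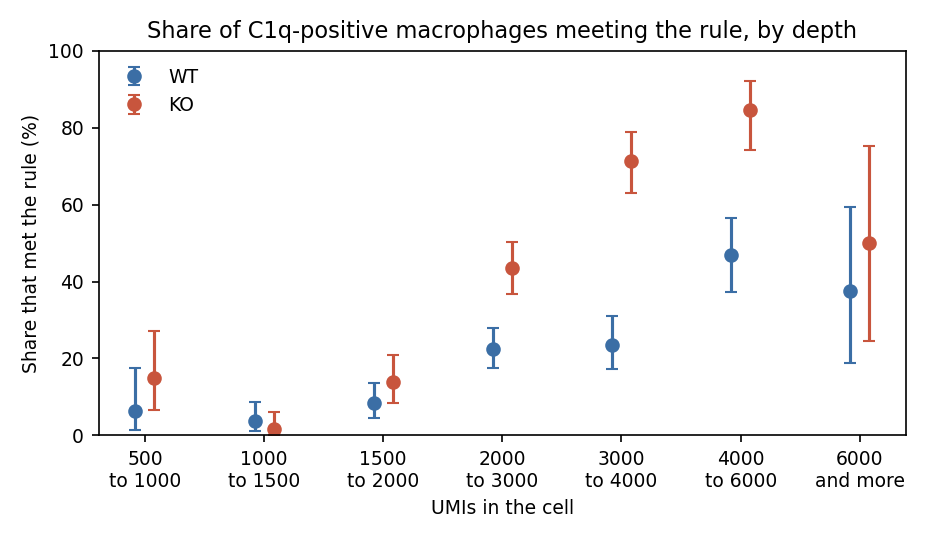
Share of C1q-positive macrophages that met the rule (vertical axis, percent) in groups by UMIs per cell (horizontal axis), WT in blue and KO in red, with exact 95% binomial intervals. From 2000 to 6000 UMIs the KO share lay above the WT share with intervals that did not overlap.

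Sex was set beside this share. Among C1q-positive macrophages that had Xist and lacked Y-linked UMIs, Lyve1 Cd163 macrophages were 22.1% in WT (146 of 661) and 53.2% in KO (42 of 79, 41.6 to 64.5). In KO macrophages with a Y-linked UMI and no Xist UMI they were 52.6% (60 of 114). The KO shares of both kinds of cell were thus alike and above that of WT. Most KO cells had neither kind of UMI, however. Xist alone was seen in 14.7% and a Y-linked UMI alone in 21.0% of KO Lyve1 Cd163 macrophages, against 8.17% and 11.9% of the other KO macrophages. Both KO shares therefore lay above the 38.7% of all KO macrophages, and they do not stand for the cells without such a UMI. With 2 mice per pool, these values do not say how individual mice differed.

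In the Lyve1 Cd163 macrophages, 95 of 4047 genes (2.35%) were over 2-fold higher and 71 (1.75%) over 2-fold lower in KO than in WT. The 95 include Lyve1 and Fcna, which helped to choose the cells. Between the cells with Xist alone, 26 genes were over 2-fold higher and 107 lower, of 2017 compared, so the balance turned there. Saa3 stood at 126 CPM in WT (80 UMIs in 19 cells) and 2091 CPM in KO (1975 UMIs in 149 cells), a log2 difference of 4.05 (3.73 to 4.39). Thinned to 2000 UMIs, Saa3 was in 8.18% and 47.3% of cells, and in 0.472% and 0.512% of melanoma cells. It was higher in the other macrophages too, by 3.45, from 9.48 to 104 CPM. Lrg1, a secreted glycoprotein of the acute phase, stood at 7.88 CPM in WT (5 UMIs) and 143 CPM in KO (135 UMIs in 78 cells), a difference of 4.18 (2.92 to 5.83), and differed by -0.10 in the other macrophages. Arg1, the arginine-degrading enzyme of alternatively activated macrophages, went from 53.6 to 418 CPM (2.97, 2.46 to 3.52), in 8 and 62 cells, and by 0.57 in the other macrophages. Chil3 had 6 and 69 UMIs (2.95) and was higher in the other macrophages too, by 1.96, from 166 to 648 CPM. Il4ra, the receptor chain for the cytokines that induce Arg1 and Chil3, differed by 1.61 (1.20 to 2.05).

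Cxcl13, the chemokine that draws B cells, had 6 UMIs in 1 WT cell and 246 UMIs in 26 KO cells (4.78, 3.64 to 6.24), and 22 of these 26 also held a Cd209f UMI. Calml4 (2.05) and Ankrd37, a hypoxia-induced gene (2.34), were also among the 10 leading higher genes. Of the rule genes Fcna (1.64, 1.38 to 1.90) and Lyve1 (1.45, 1.26 to 1.64) were over 2-fold higher, and the other 6 were higher by 0.38 to 0.62. Among the further resident genes the median was 0.35, but -0.11 between cells with Xist alone, with 5 of 27 over 2-fold higher, Vsig4 (1.80), Ltc4s (1.27), Cd209d (1.26), Wfdc17 (1.22) and F13a1 (1.14), and Mgl2, a lectin of alternatively activated macrophages, over 2-fold lower (-1.85). Folr2 (0.22), Pf4 (0.07) and Dab2 (0.19) differed little, Gas6 (-0.24) and Stab1 (-0.48) were lower, and the median in the other macrophages was 0.02.

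The lower genes were led by the globins Hbb-bs, Hbb-bt, Hba-a1 and Hba-a2, at 677, 222, 203 and 142 CPM in WT and with 0 UMIs in KO. They were present in few WT cells, Hbb-bs in 23, and were absent from the other KO macrophages but for 1 UMI, so both macrophage classes differed in red cell RNA between the libraries. Lpl, the lipase that releases fatty acids from lipoproteins, stood at 714 (WT) and 144 CPM (KO) (-2.31, -2.60 to -2.03) and, thinned, was in 56.0% and 17.1% of cells. Fabp4, a fatty acid carrier, was at 289.8 and 96.4 CPM (-1.59). The other macrophages were lower in both too, by -1.35 and -1.23. Fcrls, a scavenger-like Fc receptor homologue, was at 216 and 65.7 CPM (-1.72, -2.17 to -1.27) and differed by -0.36 in the other macrophages. Hist1h2ap, a replication histone, differed by -2.12. Col3a1, a fibrillar collagen of fibroblasts, differed by -1.64, but 124 of its 145 WT UMIs lay in 1 cell, and with called doublets removed the difference was 0.98 in the opposite direction. Fibroblast markers had a median of -1.36 over 3 genes, and of 0.83 without doublets.

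**Figure D5:**
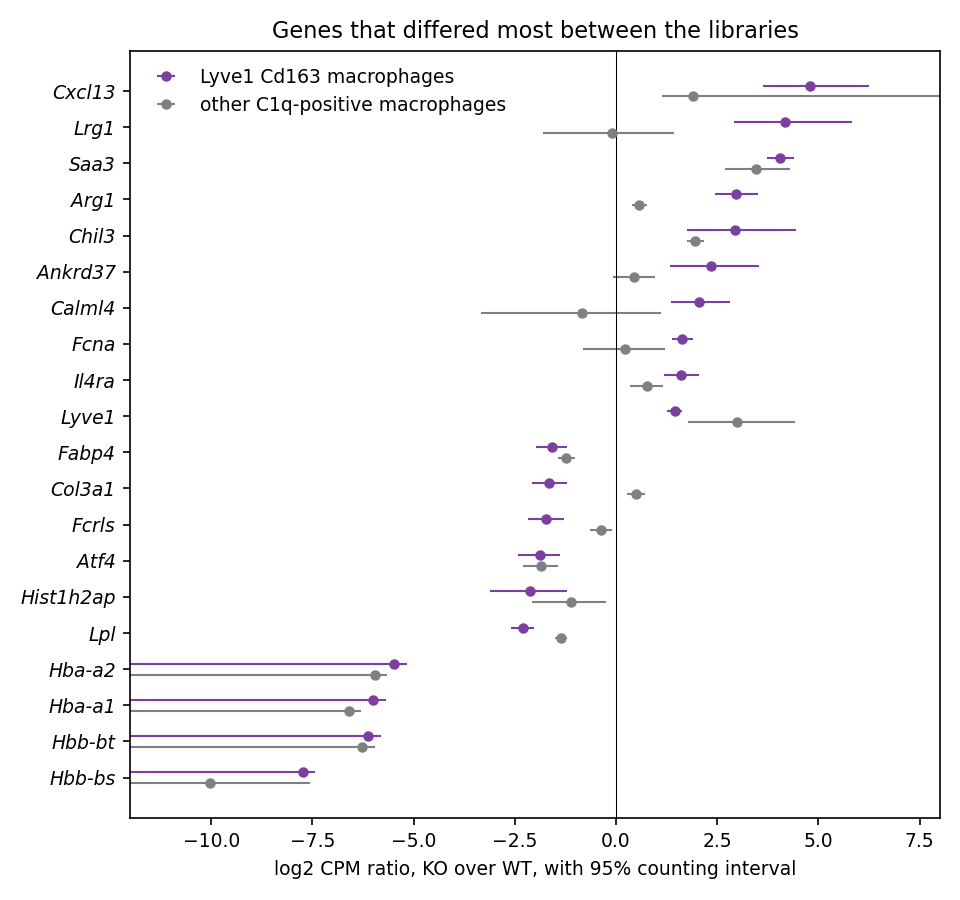
Log2 CPM ratio of KO over WT with 95% counting intervals (horizontal axis) for the 20 genes that differed most in Lyve1 Cd163 macrophages (purple) and for the same genes in the other C1q-positive macrophages (grey); a count of 0 was set to 3 and intervals that run off the axis have no lower or upper bound in view. Saa3, Atf4, Fabp4 and the globins lay close in both classes, while the intervals of Lrg1 and Calml4 lay above 0 in purple and across 0 in grey.

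KO cells with Y-linked UMIs and KO cells with Xist alone differed in several of these genes, and since they may each come from 1 mouse, sex and mouse cannot be told apart. KO cells with a Y-linked UMI (60) and those with Xist alone (42) stood at 2586 and 459 CPM for Saa3 and at 712 and 81.7 CPM for Arg1. Cxcl13 stood at 397 and 25.1 CPM, Fcna at 1008 and 308 CPM and Cd209f at 899 and 170 CPM. The 146 WT cells with Xist alone had 123 CPM of Saa3, 16.8 CPM of Arg1, 237 CPM of Fcna and 451 CPM of Cd209f. Between cells with Xist alone the KO difference was then 1.90 (1.40 to 2.40) for Saa3, 2.28 (0.95 to 3.69) for Arg1, 0.38 (-0.13 to 0.87) for Fcna and -1.41 (-2.04 to -0.83) for Cd209f, so Cd209f was lower in KO there. Cd209g (-1.93, -3.42 to -0.74) and Ccl8 (-0.20, -0.31 to -0.09) were lower too, so 3 of the 8 rule genes turned. Cxcl13, at 11.2 CPM in the WT cells, differed by 1.17 (-1.10 to 3.24) and Calml4 by 0.84 (-0.51 to 2.08), with intervals across 0. Lyve1 was alike in both KO sets, at 1453 and 1232 CPM, and differed from WT by 1.49 (1.21 to 1.77) in cells with Xist alone. Il4ra (1.78), Lrg1 (2.89), Lpl (-1.39), Fcrls (-2.39) and Atf4 (-2.25) also kept their direction there.

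Proliferation genes were lower in KO. All 18 were lower, where 2175 of all 4047 genes were lower and 1872 higher, and 6 were over 2-fold lower, with a median of -0.91 against -0.04 over all genes and -0.29 in the other macrophages. Stmn1 stood at 430.0 (WT) and 227 CPM (KO), Ube2c at 181 and 99.5 CPM, Top2a at 153 and 72.0 CPM, Birc5 at 159 and 85.8 CPM, Mki67 at 135 and 93.2 CPM and Pcna at 123 and 78.4 CPM. In cells thinned to 2000 UMIs, at least 3 of the 18 genes were present in 39.6% of WT cells (32.0 to 47.7) and 20.2% of KO cells (15.4 to 25.6), in 29.1% and 27.5% of other macrophages and in 73.7% and 55.3% of melanoma cells. Thinning left out 22 WT and 28 KO cells of the class. It also left out 327 of 732 WT (44.7%) and 275 of 453 KO (60.7%) other macrophages. The shares of the other macrophages thus describe their deeper cells only. Melanoma cells, whose genotype is the same in both libraries, thus also had a lower share in KO. With an assumed share of free RNA subtracted, the median of the list was -0.95.

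Hypoxia and glycolysis genes were higher in KO, 16 of 17 of them, with a median of 0.65 and 0.45 in the other macrophages. Gapdh stood at 1512 (WT) and 2403 CPM (KO), Pkm at 1009.6 and 1371 CPM, Ldha at 887 and 1165 CPM and Mif at 624 and 911 CPM, and Ankrd37, Ndrg1 (1.75), Bnip3 (1.61), Hk2 (1.46), Pdk1 (1.29) and Ero1l (1.10) were over 2-fold higher. ATF4 targets had a median of 0.22, with 7 of 11 measured genes higher and Nupr1 (1.31) over 2-fold higher, and 0.58 in the other macrophages. The amino acid transporter chain Slc3a2 differed by -0.17, the translation repressor Eif4ebp1 by 0.62, and the aminoacyl-tRNA synthetases Sars, Nars and Gars by -0.12, 0.22 and 0.03. Of the 11, 0 were over 2-fold lower, where 1.75% of all genes were. The other targets listed, Asns, Chac1, Trib3, Sesn2 and Cth among them, had under 50 UMIs.

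MHC class II genes, low in the class, were lower still in KO, 6 of 7, with a median of -0.50 against -0.02 in the other macrophages. Cd74 stood at 370.1 and 245 CPM (-0.60, -0.87 to -0.33). Immediate early genes were lower for 13 of 15 (median -0.37), such as Junb (-0.43), Fos (-0.35), Egr1 (-0.40) and Jun (-0.45). Complement genes outside C1q were higher for 7 of 7 (median 0.32, but -0.16 with genes of at least 1 UMI). C3ar1 (0.04, -0.18 to 0.27) and Cfp (0.12, -0.13 to 0.38) had intervals across 0, and C5ar1 (0.32), C4b (0.56) and Itgam (0.59) were below 2-fold. Chemokines were split 7 and 7, with Ccl12 (1.20) and Ccl6 (0.80) higher and Cxcl1 (-1.22) and Cxcl2 (-0.80) lower. Lysosomal genes had a median of 0.15, monocyte genes of 0.25, inflammatory cytokine genes of -0.22, with Nlrp3 (-1.40) and Il10 (-1.47) over 2-fold lower, iron and haem genes of -0.14, growth factor and matrix genes of 0.18, interferon-stimulated genes of -0.04, tumour macrophage genes of -0.21, scavenger receptors of 0.14, transcription factors of 0.04 and ribosomal protein genes of -0.01.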

How the data were processed

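Single cells of 1 WT and 1 KO library were measured by droplet RNA sequencing. The authors aligned reads to GRCm38 and deposited raw UMI counts per gene and cell, using Ensembl genes; the submitters' processing notes name Cell Ranger 3.1.0 and Seurat 3.2.1, and the labels and the methods differ on the kit version. Samples were grouped by the labelled host genotype. The members and gene lists were chosen with earlier results of these data known, some after that work had seen the values.

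From these counts, each class was totalled within its library and expressed as CPM. Sums have exact Poisson, shares exact Clopper-Pearson and ratios exact conditional binomial intervals at 95%. Genes needed 50 UMIs in the cells compared, and mitochondrial genes were left out. For single genes a count of 0 was set to 3, and for rankings and medians counts under 3. The limits on detected genes and mitochondrial UMIs are those of the study's methods.

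Named genes were the genes of the rule, Atf4, the 12 highest and 12 lowest in both libraries between classes, the 10 per direction between genotypes whose interval lay farthest from 0, and up to 6 genes with most UMIs of each list. No doublets were removed. Counts for KO over WT in these cells were simulated as Poisson draws, with 200 of 4047 genes changed. True ratios fell inside the interval in 95.9% of cases. The interval assumes such counts, so this checks the calculation only, and spread between cells or mice was not simulated. Alternatives were other limits of the rule, doublets removed (Scrublet in scanpy 1.11.5), depth matching, free RNA subtraction, other UMI minimums and TMM scaling (edgeR 4.0.16). Positions are from GENCODE vM21, and calculations used Python 3.11.15 with scipy 1.17.1. Some genes of the lists are not reported here.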

Additional observations from a re-analysis of the deposited data

Results flagged for a closer look

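Only the named genes were screened for differences between the classes that had opposite signs in the 2 libraries. In 4 of them Lyve1 Cd163 macrophages differed in this way from the other C1q-positive macrophages, with counting intervals off 0 on both sides. The difference between the libraries was not tested. Psap, the precursor of the saposins of lysosomes, differed by -0.52 (log2) in WT and 0.26 in KO. Lyz2, the macrophage lysozyme, differed by -0.082 and 0.41. Ccl2, the chemokine for monocytes, differed by 0.14 and -0.18, and the ferritin heavy chain Fth1 by 0.15 and -0.11. All 4 differed by under 1.5-fold in either library. Other genes of the lists were not screened, among them Vcam1, a tumour macrophage gene. It differed by 0.60 (0.07 to 1.12) in WT and by -1.39 (-1.96 to -0.84) in KO. Psap was at 4741 CPM in the other WT macrophages and at 3186 CPM in the other KO macrophages.

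Barcodes outside the cells kept also carried the signal: 59 in the WT library and 64 in the KO library met every gene condition of the rule but were over the mitochondrial limit. With that limit at 15% the class held 235 WT and 340 KO cells.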

How the results depend on the processing

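Of 203 alternative values of the main results 160 stayed close to the main value and 43 moved, with none called reversed. Counts of genes have no direction, and values whose interval spanned 0 could not be called reversed, so this says little about direction. Of 1611 others 142 moved and 12 reversed. The KO over WT difference of the share (log2) was 0.46 of kept cells and 0.65 of macrophages with at least 2 resident genes, 1.37 after thinning and 1.27 in cells with Xist alone. Genes over 2-fold higher between classes numbered 225 against others with 0 resident genes, 231, 91 and 307 at minimums of 20, 100 and 1 UMIs, and 298 to 411 in 1 library alone; lower ones numbered 92 at 2000 to 6000 UMIs and 310 to 443 in 1 library alone. Over the mean of both libraries the main median was 1.23 for further resident genes, -0.68 for tumour macrophage genes and -2.11 for MHC class II genes. The median of further resident genes was 1.47 with depth standardised, 1.96 against others with 0 resident genes, 1.48 at 20 and at 1 UMIs, and 1.08 to 1.43 in 1 library. Tumour macrophage genes had medians of -0.92 with at least 4 resident genes, -0.97 thinned, -0.12 against others with 0, and -1.01 at 2000 to 6000 UMIs. Monocyte genes, whose median over the mean of both libraries was -2.43, had -1.09, -1.44, -3.06 and -1.15 when thinned, depth-standardised, against others with 0 and at 2000 to 6000 UMIs, and -1.93 to -1.66 in 1 library. MHC class II genes had -2.57 with a melanoma limit of 0.25%, -1.71 with depth standardised, -3.25 against others with 0, -2.65 with free RNA subtracted, -2.56 and -0.85 at 100 and 1 UMIs, and -2.48 to -2.04 in 1 library. Between genotypes 275, 46 and 491 genes were over 2-fold higher and 263, 27 and 721 lower at 20, 100 and 1 UMIs, and 26 and 107 in cells with Xist alone. Medians that reversed were those between classes of growth factor genes (0.15 at 1 UMI) and lysosomal genes (-0.026 depth-standardised, -0.0055 to 0.26 in 1 library alone), and those between genotypes of further resident genes (-0.11, Xist alone), complement genes (-0.16 at 1 UMI) and fibroblast markers (1.14 with at least 4 resident genes, 0.99 without Ednrb, 0.83 without doublets); Col3a1 reversed in the same 3 settings (1.12, 1.09 and 0.98) and when thinned (0.20). The cause was not tested; of the 145 WT UMIs of Col3a1, 124 lay in 1 cell. TMM scaling moved the median of all genes between genotypes from -0.04 to 0.06. Shallow genes such as Ly6c2 and Cd209d rest on few UMIs, and their ratios are bounded by counting. The counts in cells with Xist alone rest on 42 KO cells and 2017 genes. The share in those cells and the range of 2000 to 6000 UMIs were chosen after seeing the data. No paired analysis was possible because only 1 sample stands behind each host genotype.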
